A study of Homo sapiens with 4 samples.

Results

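The SOX transcription factors described here are 7 genes chosen by name: SOX2, SOX4, SOX5, SOX6, SOX8, SOX9 and SOX10. Every region of the authors' deposited table listed for one of them was taken, which gave 165 of the table's 91107 distinct regions. Of these, 66 carried a computed adjusted p-value, against 36436 in the whole table, and the other 99 were of too low a level to have one. The table came from chromatin immunoprecipitation and sequencing of H3K27ac, the acetylated histone H3 found at active promoters and enhancers, in the established human melanoma line A375. The labels give 2 libraries of cells that received isopropanol, the vehicle, and 2 of cells that received 1 mM octanoate, the anion of a fatty acid of medium chain length, with 48 hours of treatment in each group. Nothing in the labels says whether the libraries of a group came from separate cultures, so the p-values measure only the spread between these libraries, which may be technical.

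Each mean level, log2 fold change, standard error and p-value given for a region is the value of the authors' deposited table, which has no column for a single library. The mean level is the authors' normalized read level over the libraries, and the spread between replicates could be read only through the standard error of the authors' model. The table's header does not say which group is the numerator, so a fold change is called positive or negative and is not assigned to either treatment. The table as a whole was shifted to positive values: the median log2 fold change was 0.28 over all distinct regions and 0.32 over those with an adjusted p-value. Coordinates are those of the table, in the build hg38 that the submitters' processing notes name.

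SOX proteins are relatives of the sex-determining factor SRY and bind the minor groove of DNA through a high-mobility-group box. SOX8, SOX9 and SOX10 form group E, which acts in the neural crest, the embryonic cell population that gives rise to melanocytes and Schwann cells. SOX10 maintains the melanocyte lineage and activates MITF, the master regulator of pigment cells, while SOX9 is best known as the driver of cartilage formation and is also found in melanoma cells that have lost pigment cell features. SOX5 and SOX6 form group D, lack an activation domain of their own and modulate group E proteins at shared targets. SOX2, of group B, is a factor of pluripotent cells and neural progenitors, and SOX4, of group C, is widespread in developing tissue and in tumours.

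The labelled cell type was checked against the marks at gene starts. A region overlapped the start of 4 of 8 melanocytic markers in the authors' deposited table, namely SOX10, MITF, PMEL and S100B, at 15.1 to 41.2 level units per kb. The starts of MLANA, DCT, TYR and TYRP1 had none. A region at the start was listed for 0 of 4 keratinocyte, 0 of 4 lymphoid and myeloid and 0 of 3 endothelial markers.

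Promoter sequences of RefSeq (GRCh38.p14) were matched by symbol for 4 of the 7 genes, SOX2, SOX4, SOX5 and SOX6. The sequences that lie inside an H3K27ac region are shown for SOX2, SOX5 and SOX6, because these promoters carried the mark and differ in how it was assigned. Each is printed 5′ to 3′ on the gene's strand. Bases transcribed from the gene itself or from a neighbouring protein-coding gene were left out, and lncRNA genes were not considered. The SOX2 stretch lies in a region that overlaps the lncRNA gene SOX2-OT. Capitals mark the GC box GGGCGG, the CCAAT box and the SOX core ACAAT on either strand. No base lay in more than 1 motif.
SOX2, chr3:181711675-181711924, plus strand: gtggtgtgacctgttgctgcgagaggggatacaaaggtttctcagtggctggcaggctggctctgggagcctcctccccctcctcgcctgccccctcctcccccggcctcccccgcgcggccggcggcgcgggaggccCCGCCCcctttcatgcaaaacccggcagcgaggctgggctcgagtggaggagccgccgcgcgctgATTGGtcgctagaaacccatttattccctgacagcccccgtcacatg
SOX5, chr12:24562651-24562741, minus strand: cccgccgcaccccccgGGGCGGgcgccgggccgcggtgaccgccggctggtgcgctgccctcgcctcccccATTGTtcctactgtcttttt
SOX6, chr11:16738478-16738646, minus strand: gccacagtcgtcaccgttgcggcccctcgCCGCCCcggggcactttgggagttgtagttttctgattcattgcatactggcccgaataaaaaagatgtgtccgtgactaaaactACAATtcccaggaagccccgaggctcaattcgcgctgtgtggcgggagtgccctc
The SOX2 stretch of 250 bases held 20 CpG dinucleotides, 1 GC box and 1 CCAAT box. The SOX5 stretch of 91 bases held 12 CpG, 1 GC box and 1 SOX core. The SOX6 stretch of 169 bases, which runs from the SOX6 start to the start of the neighbouring gene C11orf58 on the other strand, also held 12 CpG, 1 GC box and 1 SOX core. Among 35116 RefSeq promoter windows of 250 bases, a GC box was present in 42.6%, a CCAAT box in 32.0% and a SOX core in 24.6%. The SOX4 window had 4 CCAAT boxes and no GC box.

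The first question was whether any SOX region differed between octanoate and vehicle. Of the 66 SOX regions with an adjusted p-value, 0 passed 0.05 by the authors' DESeq2 test, where 1.67% of all regions with an adjusted p-value did. At an unadjusted p-value under 0.05 there were 17 SOX regions, all positive, or 10.3% of the 165 (95% Wilson interval 6.53 to 15.9%), against 8.99% of all distinct regions in either direction and 8.68% in the positive one. These shares are close to the background. The median log2 fold change of the 165 regions was 0.27 (95% interval over regions 0.15 to 0.33), where all regions had 0.28, and 72.1% were positive (Wilson 64.8 to 78.4%), where 73.7% of all regions were. After the median of tested regions was subtracted from the fold changes, 0 SOX regions passed, with a background of 0.124%. The smallest adjusted p-values by the authors' DESeq2 test were 0.0618, 0.0657 and 0.0711, for regions listed for SOX9, SOX8 and SOX2. These regions lay 249414, 15221 and 204674 bases from the start.

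The 7 genes did not have the same median. SOX8 had the highest median log2 fold change at 1.27 over 4 regions (range 0.89 to 1.43), followed by SOX9 at 0.48 over 40 (95% interval over regions 0.27 to 0.59). The single SOX10 region had 0.38 ± 0.21 (standard error). SOX4 followed with 0.30 over 19 regions (0.03 to 0.64), SOX2 with 0.28 over 22 (-0.11 to 0.62) and SOX6 with 0.21 over 14 (-0.14 to 0.58). SOX5 was lowest at 0.13 over 65 regions (0.01 to 0.24). The intervals of SOX4, SOX2, SOX6 and SOX5 overlapped, and those of SOX9 and SOX5 did not. SOX8 has only a range of its 4 values, which lay above the SOX9 interval. That range overlapped the SOX9 values, which ran from -0.73 to 1.14. The single SOX10 region has no interval over regions. That gap between SOX9 and SOX5 was lost when weaker regions were left out. Among regions with an adjusted p-value, SOX9 had a median of 0.49 (0.19 to 0.65) and SOX5 0.25 (0.06 to 0.35). Without regions of mean level under 10, their intervals were 0.19 to 0.61 and 0.04 to 0.32, which overlap as well. The order changed too: SOX6 had a median of 0.51 over its 3 regions with an adjusted p-value. The intervals cover variation between regions, which share the same libraries, so they are a description and no test.

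**Figure D1:**
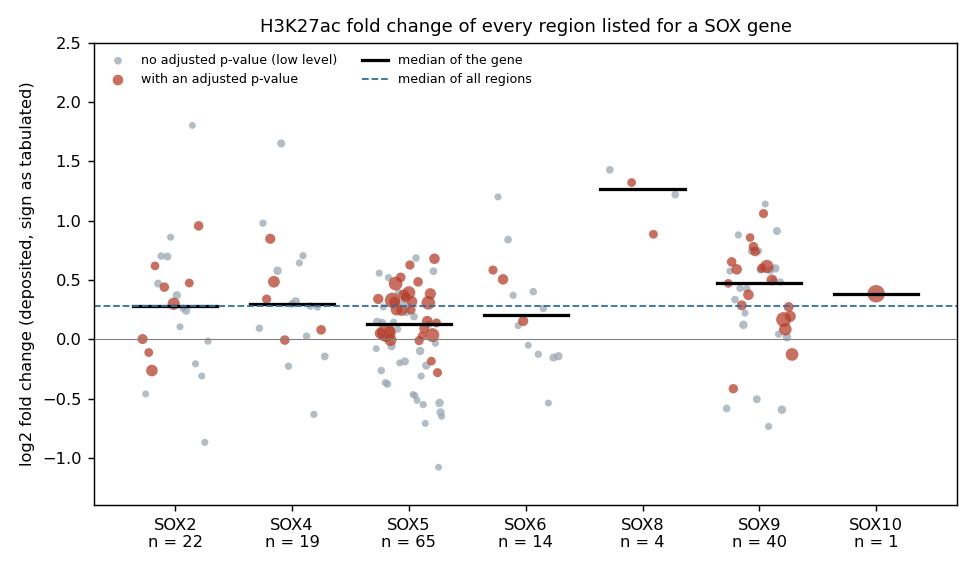
Deposited log2 fold change of each of the 165 regions listed for a SOX gene, ordered within a gene from lower to higher coordinate, with larger points for higher mean levels. Black bars are medians of the gene and the dashed line is the median of all distinct regions, 0.28: all 4 SOX8 points lie above it, and the SOX5 median of 0.13 lies below it.

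SOX10 carried the strongest mark of the SOX regions at gene starts, although a SOX5 region inside its gene had a higher level and a pair of distant SOX9 regions more units per kb. Its one region (chromosome 22, 37971763 to 37990560) was 18797 bases wide and covered the whole RefSeq span of the gene, 37972312 to 37984555. Its mean level of 774 ranked 55 of the 91107 regions in the authors' deposited table. Per length it had 41.2 units per kb, above 96.3% of the 10642 regions at gene starts, and it was wider than 99.5% of them. The same region is listed for POLR2F, a shared RNA polymerase subunit gene in whose span SOX10 lies.

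SOX9 had a weak mark at its start. The region there (chromosome 17, 72120293 to 72123277) was 2984 bases wide, with a mean level of 39.4 and 13.2 units per kb, above only 3.91% of regions at gene starts. It overlapped the lncRNA SOX9-AS1 as well. A second region over the end of the gene (72125504 to 72126623) had 7.81 units per kb. The SOX2 start region had 22.2 units per kb (percentile 34.6) and the SOX5 one 38.9 (percentile 93.9), beside a median of 25.3 for all regions at starts. Per kb, SOX10 and SOX5 lay in the upper part of the distribution and SOX9 near its lower end. By level without division by width, SOX2 moved to percentile 79.8 and SOX9 to 18.2.

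No region overlapped the start of SOX4, SOX6 or SOX8 as the authors' deposited table measures distance. For SOX4 the region over the gene body (chromosome 6, 21593744 to 21598685) is given a distance of -977 bases, although it covers the RefSeq span of the gene, 21593751 to 21598619. It had a mean level of 115 and 23.3 units per kb. For SOX8 the nearest region (chromosome 16, 981070 to 981605) is given a distance of 203 bases, with a mean level of 7.41 and 13.8 units per kb. That region did not overlap the RefSeq span of SOX8, and it overlapped the lncRNA CEROX1 and the gene LMF1. For SOX6 the outermost RefSeq promoter, shown above, lay in a region of 31.7 units per kb (chromosome 11, 16737669 to 16740506) that the table lists for C11orf58. Its log2 fold change was 0.08 ± 0.25 (standard error).

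The surroundings of SOX9 and SOX10 differed in how much sequence carried the mark. Within 100 kb of the SOX10 span, 29 regions covered 41.7% of the sequence, with a summed level of 2830 and 32.0 units per kb of region. Of these 29 regions 1 is listed for SOX10, and the others carry the names of POLR2F, MICALL1, PICK1, EIF3L, C22orf23 and BAIAP2L2. Within 100 kb of the SOX9 span there were 3 regions, which covered 2.65% of the sequence with a summed level of 83.5 and 15.3 units per kb. SOX2 had 13 regions and 8.97% coverage in the same window, SOX4 had 6 and 6.05%, and SOX8 had 7 and 4.49%. For the long genes SOX5 and SOX6, whose spans the window includes, the values were 57 and 14.6%, and 19 and 2.55%. SOX9 was therefore not the member of lowest coverage. SOX10 sits among close neighbours, to which the table assigns most regions around it, and SOX9 lies in a gene desert.

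**Figure D2:**
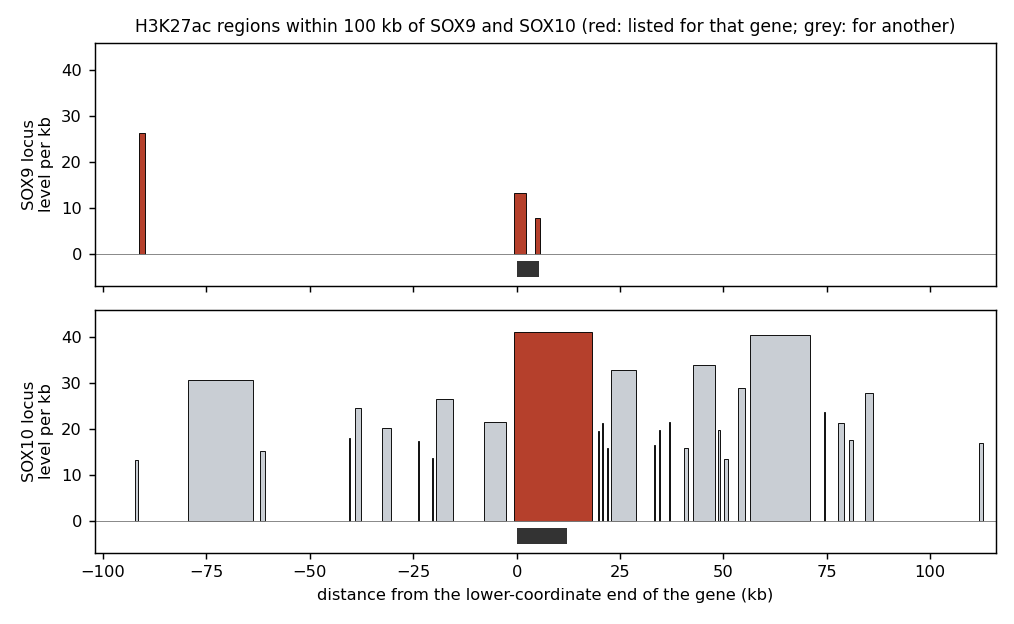
Every H3K27ac region within 100 kb of SOX9 (upper) and SOX10 (lower), drawn from its first to its last base, with height as mean level per kb and the gene span as a dark bar. Around SOX9 there are 3 regions, all listed for it, and around SOX10 there are 29, of which the red one is listed for SOX10.

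On the higher-coordinate side of SOX10, inside POLR2F, a chain of strong regions followed. The widest of them (38028663 to 38043265, 14602 bases) had a mean level of 590 and 40.4 units per kb, near that of SOX10 itself, and a log2 fold change of 0.38 ± 0.21 (standard error). The regions at 37995230 to 38001203 and 38014876 to 38020216 had 32.9 and 34.0 units per kb, with log2 fold changes of 0.52 ± 0.23 and 0.36 ± 0.23. The 16 regions listed for POLR2F, the SOX10 region included, were centred on a log2 fold change of 0.27 (median, 95% interval over regions 0.04 to 0.41), and 0 of the 7 with an adjusted p-value passed. That median is close to the 0.28 of all regions.

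Fold changes at the starts were compared between members. The SOX9 start region had 0.74 ± 0.32 (standard error, adjusted p-value 0.204 by the authors' DESeq2 test), the SOX10 region 0.38 ± 0.21 (0.298), the SOX5 one 0.31 ± 0.20 (0.363) and the SOX2 one 0.30 ± 0.25 (0.465). The difference of SOX9 minus SOX10 was 0.36 with a 95% interval of -0.40 to 1.11, from the deposited standard errors taken as independent. All 6 pairs of these 4 regions were tested, two-sided against the normal distribution of the authors' model, and 0 had a Benjamini-Hochberg adjusted p-value or an unadjusted one under 0.05, with smallest values of 0.709 and 0.254. The widest interval was that of SOX2 minus SOX9, from -1.24 to 0.36. Differences of more than 1 on the log2 scale therefore lay inside the error of pairs with SOX9.

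**Figure D3:**
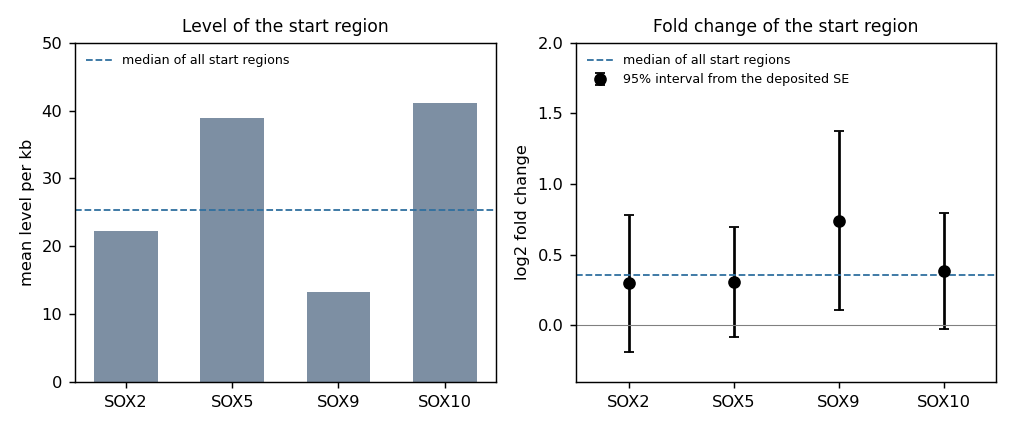
Mean level per kb (left) and deposited log2 fold change with its 95% interval from the deposited standard error (right) of the region at the start of SOX2, SOX5, SOX9 and SOX10, with the median of all regions at gene starts as a dashed line. SOX9 has the lowest level, 13.2 units per kb, and the highest fold change, 0.74, and all 4 intervals overlap.

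Most of the 40 SOX9 regions lay far from the gene: 37 were more than 100 kb away, with distances of up to 931891 bases on the lower side and 478867 on the higher side. Fold changes were positive in 34 of the 40, or 85.0% (Wilson 70.9 to 92.9%), an interval that includes the 73.7% of all distinct regions. The region with the smallest p-value of all SOX regions (72370433 to 72372257, 249414 bases from the start) had a log2 fold change of 1.06 ± 0.33 (standard error), p-values of 0.00132 before and 0.0618 after adjustment by the authors' DESeq2 test, at a mean level of 27.6. A wider region beside it (72385665 to 72398380, 12715 bases) had 0.61 ± 0.21 and an adjusted p-value of 0.0911 at a mean level of 218. Unadjusted p-values under 0.05 were found in 7 of the 40 SOX9 regions, or 17.5% (Wilson 8.75 to 32.0%), where 8.99% of all regions have one. None of the 7 passed adjustment.

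The strongest SOX9 regions had fold changes both above and below the SOX9 median, differences that were not tested. The region of second highest level was the one of 0.61 above, while the highest mean level, 385 (29.1 units per kb), belonged to a region of 13254 bases (72560843 to 72574097) that overlapped the lncRNA LINC00673, with a log2 fold change of 0.17 ± 0.22 (standard error). A pair of narrow regions nearby, of 600 and 1073 bases (72589270 to 72589870 and 72590716 to 72591789), had 72.4 and 74.7 units per kb, the densest of all SOX regions, with log2 fold changes of 0.27 ± 0.29 and 0.19 ± 0.27. The 7 regions more than 400 kb away on this side had a median of 0.08 (95% interval -0.59 to 0.27), and the other 33 had 0.58 (0.43 to 0.61). This division was chosen after the values were seen. Beyond the last SOX9 region the table lists SLC39A11, a zinc transporter gene, with 30 regions and a median of -0.09, and on the other side KCNJ2, a potassium channel gene, with 19 regions and a median of 0.21.

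The lncRNA genes of the desert help to place the SOX9 regions. Of the 40, 14 overlapped LINC00673, and 1 each overlapped LINC00511, LINC01152, SOX9-AS1 and CASC17. The LINC01152 region (72029784 to 72031132), 89888 bases below the SOX9 start, had 26.2 units per kb and a log2 fold change of 0.78 ± 0.31 (standard error, adjusted p-value 0.167 by the authors' DESeq2 test). The table lists only 1 gene name for these regions, and the overlap does not show which gene they act on.

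**Figure D4:**
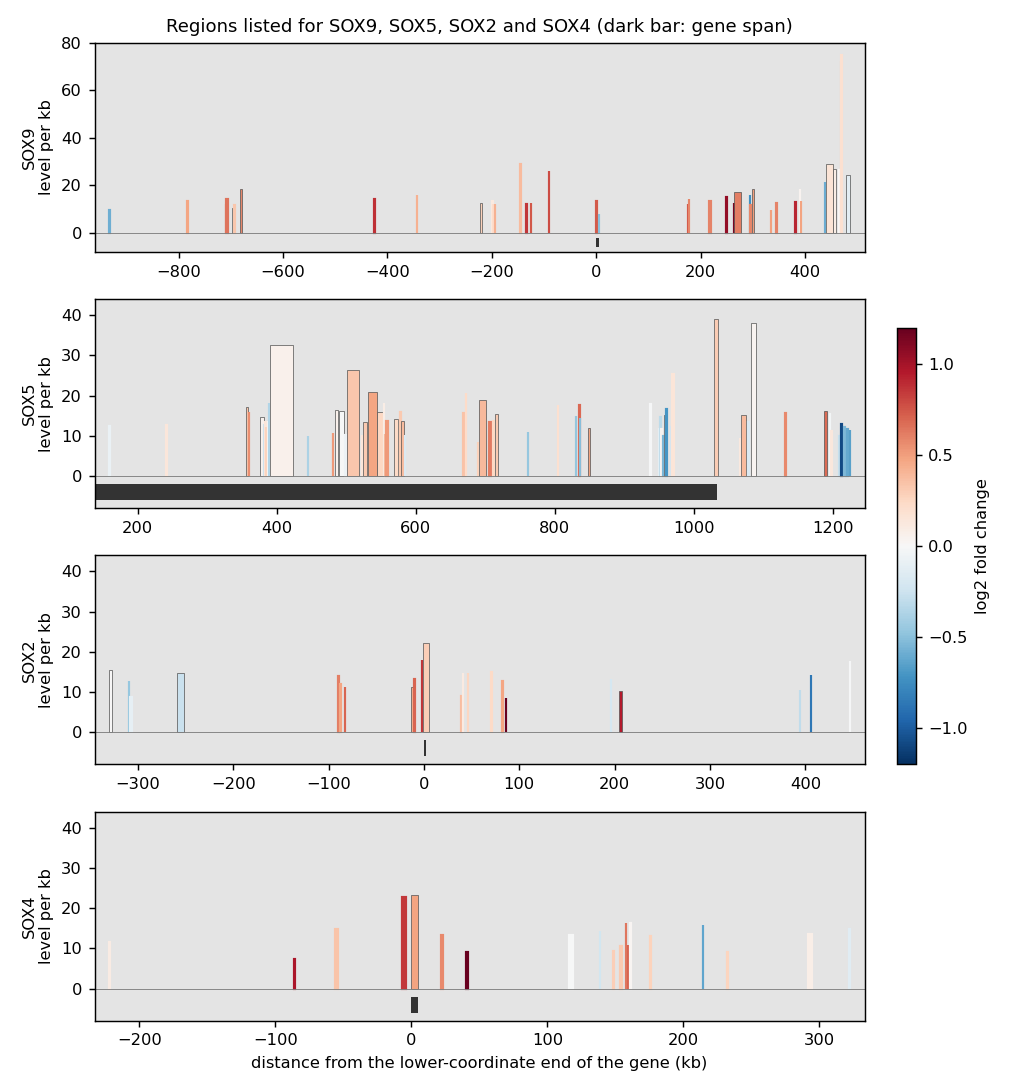
Regions listed for SOX9, SOX5, SOX2 and SOX4 by distance from the lower-coordinate end of the gene (kb), with height as mean level per kb and colour as deposited log2 fold change. Narrow regions carry an outline so that they can be seen, and scales differ between panels. The tallest SOX9 regions, at 72.4 and 74.7 units per kb, lie at the higher-coordinate end of its desert, and most SOX5 regions lie inside the gene.

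SOX8, the third member of group E, had 4 weak regions and the highest median of the 7 genes, although single regions listed for SOX2 and SOX4 had larger values. Their mean levels ran from 7.40 to 21.8, and their log2 fold changes were 1.43 ± 0.66 (standard error) at a distance of 203 bases, 1.32 ± 0.42 at 15221 bases, 0.89 ± 0.40 at 21206 bases and 1.22 ± 0.69 at 37425 bases from the start. All 4 were positive, where 73.7% of all distinct regions are. An unadjusted p-value under 0.05 was found in 3 (Wilson interval of the share 30.1 to 95.4%), where 8.99% of all distinct regions have one. Of the 2 with an adjusted p-value, the region at 997028 to 998058 had 0.0657 and the one at 1003013 to 1004214 had 0.213 by the authors' DESeq2 test. After centring the first had an adjusted p-value of 0.643.

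The positive values near SOX8 were not limited to regions with its name. On the higher side, regions listed for SSTR5, a somatostatin receptor gene, had 0.94 ± 0.59 (standard error) and 1.29 ± 0.38 (1082144 to 1083766), and the second passed with an adjusted p-value of 0.0465 by the authors' DESeq2 test, which became 0.556 after centring. On the lower side the region of 78.7 mean level at 969996 to 973684, listed for LMF1, had 0.35 ± 0.26. When each gene was represented by its regions within 2 kb of the start, weighted by their errors, 6 genes could be compared in 15 pairs, and the difference of SOX5 minus SOX8 was -1.12 (95% interval -2.47 to 0.23, Benjamini-Hochberg adjusted p-value 0.661). The lone SOX8 region within that distance had an error too large to separate it from the others.

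SOX5 had the most regions and the widest. Of its 65 regions 52 overlapped the gene's own RefSeq span on chromosome 12, which is 1033147 bases long, and together the 65 covered 191.7 kb with a summed level of 4018. The widest (23920479 to 23952620, 32141 bases, 609830 bases from the start) had a mean level of 1049, rank 19 of all regions in the authors' deposited table, and 32.6 units per kb. Its log2 fold change of 0.06 ± 0.17 (standard error, 95% interval -0.28 to 0.39) was the most precise of any SOX region. The next inside the gene (24031266 to 24048006, 16740 bases, mean level 441) had 0.33 ± 0.19, and the third (24061257 to 24073711, mean level 261) had 0.47 ± 0.21 with an unadjusted p-value of 0.0266.

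Outside the gene, a region at 24612344 to 24619387, in the lncRNA gene LOC105369698, had 38.1 units per kb, close to the 38.9 of the SOX5 start, with a log2 fold change of 0.04 ± 0.21 (standard error). The largest SOX5 value at a mean level of at least 10 was 0.68 ± 0.28 (24717663 to 24721652, adjusted p-value 0.173 by the authors' DESeq2 test), and the smallest was -0.62 ± 0.48 (24750919 to 24752086). Regions inside the span had a median of 0.15 and the 13 outside had -0.03. Among the 24 negative SOX5 values, 4 came from its 29 tested regions and the others from regions of lower level.

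SOX6, the partner of SOX5 in group D, had 14 regions, the nearest 50815 bases from the start the table uses. The highest mean level, 64.4 (19.1 units per kb), lay at the far end of the gene (chromosome 11, 15967709 to 15971088), with a log2 fold change of 0.51 ± 0.24 (standard error, unadjusted p-value 0.0357, adjusted 0.241 by the authors' DESeq2 test). The largest value at a mean level of at least 10 was 0.58 ± 0.35 (15815528 to 15817521) and the smallest -0.15 ± 0.54 (16355657 to 16356378). Per kb of region SOX6 had 14.9 units against 21.0 for SOX5. These are summed levels over summed widths, in which wide SOX5 regions weigh most: the median region had 13.8 units per kb for SOX5 and 13.2 for SOX6. The SOX6 values leave out the promoter region listed for C11orf58. The intervals of the median fold change overlapped.

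SOX2 lies inside the lncRNA gene SOX2-OT, and 11 of its 22 regions overlapped SOX2-OT. The start region (chromosome 3, 181711034 to 181717611), which holds the promoter printed above, had the highest mean level at 146. The smallest p-value belonged to a region 204674 bases away (181916597 to 181920177) with a log2 fold change of 0.96 ± 0.31 (standard error), p-values of 0.00175 before and 0.0711 after adjustment by the authors' DESeq2 test. The most negative at a mean level of at least 10 was -0.26 ± 0.23 (181453161 to 181460679), a region of 7518 bases. Within 100 kb of SOX2 all 13 regions were positive, where 73.7% of all distinct regions are, with a median of 0.47 (95% interval over regions 0.26 to 0.70). Of the 13, 4 had an adjusted p-value, and 0 had an unadjusted one under 0.05 by the authors' DESeq2 test.

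SOX4 had 19 regions, of which 12 overlapped the lncRNA gene CASC15. The 6 regions within 100 kb of the gene were all positive, where 73.7% of all distinct regions are, a difference that was not tested. The 6 fold changes were centred on 0.71 (median, log2 scale), with a 95% interval from 0.34 to 1.65 over regions. The one before the gene (21587117 to 21589411) had 0.85 ± 0.30 (standard error, p-value 0.00495 before and 0.114 after adjustment by the authors' DESeq2 test) and the one over the gene 0.49 ± 0.26. The largest SOX4 value, 1.65 ± 0.52 (21634026 to 21635397, unadjusted p-value 0.00151), had a mean level of 12.4, too low for an adjusted p-value. The 12 regions in CASC15 had a median of 0.17, and the least of the SOX4 values at a mean level of at least 10, -0.0065 ± 0.31, was among them (21709697 to 21712516).

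Other genes of the family and the pathway were read from lists of genes. Of 13 other SOX genes, 11 had 81 regions, with a median log2 fold change of 0.24. There were 0 calls among 34 regions with an adjusted p-value, beside 1.67% of all tested regions. At an unadjusted p-value under 0.05 by the authors' DESeq2 test there were 4 of the 81, where 8.99% of all distinct regions reach it. The strongest starts among them were those of SOX13 (38.5 units per kb), SOX15 (32.3) and SOX18 (25.8). The 24 partners and targets of SOX10 and SOX9 in pigment and Schwann cells, among them MITF, ERBB3, MIA and PMEL, had 169 regions with a median of 0.22 and 0 calls among 71, beside 1.67% of all tested regions. At an unadjusted p-value under 0.05, 10 of the 169 were positive and 1 negative, where 8.99% of all distinct regions reach it in either direction. The start of MIA, a secreted melanoma protein, had 42.5 units per kb and that of ERBB3, a neuregulin receptor, 37.4.

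The 23 neural crest regulators had 340 regions with a median of 0.27 and 4 calls among 142 regions with an adjusted p-value, beside 1.67% of all tested regions. At an unadjusted p-value under 0.05 by the authors' DESeq2 test, 31 of the 340 were positive and 1 negative. Of all distinct regions, 8.99% reach it in either direction. The other lists had no call. The called regions are listed for ETS1, ID1 and ID3. The ETS1 region, at a distance of 374848 bases, had 0.81 ± 0.20 (standard error, adjusted p-value 0.0112 by the authors' DESeq2 test). At the start of ETS1 itself the region had 0.12 ± 0.65 at a mean level of 7.23, too low for an adjusted p-value. The ID1 region lay at the gene's start (0.87 ± 0.22, 0.0155). ID3 had a region at its start (0.72 ± 0.21, 0.0409) and another at a distance of -24972 bases (0.99 ± 0.28, 0.0324). ID1 and ID3 are inhibitors of basic helix-loop-helix factors and ETS1 is a factor of the ETS family. All 4 calls were lost after centring, where their adjusted p-values ran from 0.590 to 0.898. Of the genes in the 3 lists, PAX3 stands in both of the last.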

How the data were processed

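H3K27ac chromatin immunoprecipitation was sequenced from A375 cells in 2 vehicle and 2 octanoate libraries, grouped by the titles in the labels. The submitters' processing notes name hg38, Trim Galore, cutadapt, FastQC, Bowtie2, Picard, MACS2, featureCounts, DESeq2 and bedtools 2.29.1, with no roles. The deposited table holds, per the file headers, a mean signal normalized by the authors, a log2 fold change with its standard error, a score that is their ratio, a p-value and an adjusted p-value for each region. An adjusted value of 1 stands for one that the authors did not compute, at mean levels up to 18.4. Regions at distance 0 were taken to overlap a gene start. Depth per library is unknown, and 0 columns of single libraries were left out.

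Lines that repeat a region were merged. From these values were computed, with Python 3.11.15 and scipy 1.17.1: levels per kb of region, medians with exact order-statistic 95% intervals over regions, Wilson intervals, overlaps with RefSeq gene spans (GRCh38.p14, 7 of 7 genes matched), pairwise differences, and centring, in which the median fold change of tested regions was subtracted, the authors' standard errors were kept and Benjamini-Hochberg adjustment was repeated. The count test planned with edgeR needs values of single libraries and was not run, so the authors' own test is reported. The threshold was 0.05. The steps were tested on simulated data. Named regions are, for each gene, the one at its start, the highest level, the smallest p-value and the extremes of fold change among regions of mean level 10 or more, and others were named after their values were seen. The members and lists were chosen with earlier results of these data known.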

Additional observations from a re-analysis of the deposited data

How the results depend on the processing

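No SOX region passed after adjustment over all distinct regions, adjustment over all lines, or centring, each giving 0. A threshold of 0.01, a mean level of at least 10 and the use of all lines also gave 0, but could give nothing else. Every region with an adjusted p-value has a mean level of at least 18.4, and no SOX region is repeated among the lines. No pair of start regions passed with starts taken within 2 kb. Bonferroni adjustment also gave 0, which was fixed in advance because it is stricter than the adjustment that had passed no pair. Centred on the median of all distinct regions, the median of the 165 regions was -0.0095, the positive share 47.9%, and the medians of SOX5, SOX4 and SOX9 -0.15, 0.019 and 0.20, which follows from the subtraction. The median of the 165 was 0.33 for regions with an adjusted p-value and 0.37 without SOX5, and the positive share was 79.5% at a mean level of at least 10 and 86.4% for regions with an adjusted p-value. Within 100 kb of the start the medians were 0.71 for SOX4, 0.74 for SOX9, 0.03 for SOX5 (against 0.13) and -0.15 for SOX6, the last over 3 regions. All regions within 100 kb of the gene span, a setting added after the data were seen, gave 0.71 for SOX4 and 0.74 for SOX9 as well. Without division by width, the percentile of the start region was 79.8 for SOX2, 18.2 for SOX9 and 99.7 for SOX10. Within 100 kb the level per kb was 18.5 for SOX4, 24.5 for SOX5 and 15.3 for SOX9. Where no construction is named, the cause was not tested.

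No paired analysis was possible because values of single libraries are not part of the table. The replicate block, leaving out each library and a fit of counts were therefore not run. Standard errors of SOX regions with an adjusted p-value ran from 0.17 to 0.42, which sets the precision at single regions.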

Other observations

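At the higher-coordinate end of the SOX5 neighbourhood, 5 regions more than 170 kb from the start, between 24738947 and 24754323 on chromosome 12, were all negative in the authors' deposited table, with log2 fold changes from -1.08 to -0.28 and a median of -0.62. They were picked after their values were seen. Their mean levels ran from 2.61 to 26.4, 1 of the 5 had an adjusted p-value (0.622), and 0 had an unadjusted p-value under 0.05 by the authors' DESeq2 test. The region listed for SOX5 at 24717663 to 24721652, on their lower-coordinate side, had 0.68.

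Inside the SOX6 span, a region listed for C11orf58 (16604403 to 16608094 on chromosome 11) had a mean level of 51.3 in the authors' deposited table. Its log2 fold change was 0.68 ± 0.32 (standard error), with p-values of 0.0335 before and 0.236 after adjustment.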
